A study of Mus musculus with 9 samples.

Results

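The genes described here are 41 enzymes, receptors and carriers of the folate cycle, the methionine cycle and nucleotide synthesis, among 21883 protein-coding genes in all. They were chosen by name as a pathway, with earlier results of these data known but no measured value in the rule, and each was given a window of its RefSeq span on mm10 plus 5 kb on each side. Chromatin immunoprecipitation with sequencing (ChIP-seq), which pulls down DNA bound to a protein with an antibody and sequences it, was done for KDM6A in Sv129 mouse embryonic stem cells. The groups were 2 KDM6A libraries of cells given 0.12 µM MTX for 24 h, 2 KDM6A libraries of control cells without it, and 1 library made with IgG, a nonspecific antibody, from MTX cells. The remaining 4 of the 9 samples were inputs, and lists of enriched intervals were used for the 5 immunoprecipitations. The labels give the genotype field of the control cells as WT and that of the MTX cells as folate deficiency, and the treatment field is the same in all 9 samples, so the groups rest on the sample titles and no mutation is recorded for either. All samples come from a single cell line from a stem cell bank, grown on gelatin with serum and leukemia inhibitory factor, and nothing states that libraries of a group were separate cultures. The p-values of the tests of MTX against control therefore measure the spread between these libraries, which may be technical. Those deposited with the intervals come from 1 library each and measure no spread between libraries. No expression was measured, so the labelled cell type was not checked against its markers.

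KDM6A, also called UTX, is a demethylase that removes methyl groups from lysine 27 of histone H3, a mark of repressed genes. Folate carries single carbon units that feed purine and thymidylate synthesis and the remethylation of homocysteine to methionine. Methionine is the source of S-adenosylmethionine, the methyl donor for DNA and histone methylation, and mouse embryonic stem cells are known to break down threonine through glycine as a source of these units. MTX is the usual short name of methotrexate, a drug that inhibits dihydrofolate reductase, although the labels do not spell it out.

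The deposited lists have no header, and their columns were read from the values as a count of immunoprecipitated reads, a count of background reads, a p-value, a fold and an adjusted p-value per interval. The fold is the ratio of these counts times 1 depth constant per list, so a fold of 1 means no enrichment over background. The lists of MTX libraries 1 and 2 held 24177 and 28976 intervals, 44838 and 21228 were listed in control libraries 1 and 2, and 22843 in IgG. Immunoprecipitated reads inside the intervals of a library came to between 3251202 and 4192029. The full depth is unknown, libraries were amplified by PCR with no molecular identifiers mentioned in the labels, and the exact 95% intervals given below for folds and shares cover counting error only.

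In the KDM6A libraries the pathway carried intervals at close to the rate of other genes of its length, and the distance was wider in IgG than in any of them. In MTX library 1, 17 of the 41 genes (41.5%) had an interval, against 34.5% of other protein-coding genes of like length. In MTX library 2 it was 15 genes (36.6%) against 31.1%. In control library 1 it was 24 (58.5%) against 50%, and in control library 2 it was 11 (26.8%) against 25.7%. The IgG library had 17 (41.5%) against 27.2%. Over all protein-coding genes the share was 33.5% and 30.8% in the MTX libraries, 47.1% and 26.1% in the control libraries and 27.5% in IgG. The like-length share lay within the exact 95% interval of the pathway's share in all 5 libraries, for example 26.3 to 57.9% in IgG. The number of pathway genes was 16.0 ± 1.41 in MTX and 17.5 ± 9.19 in control cells (SD, n = 2 each), so the control libraries differed from each other by more than the groups did. Control library 1 had the longest list and the most pathway genes, and in lists cut to equal length it had 8. The share of other genes in the cut lists was not computed.

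**Figure D1:**
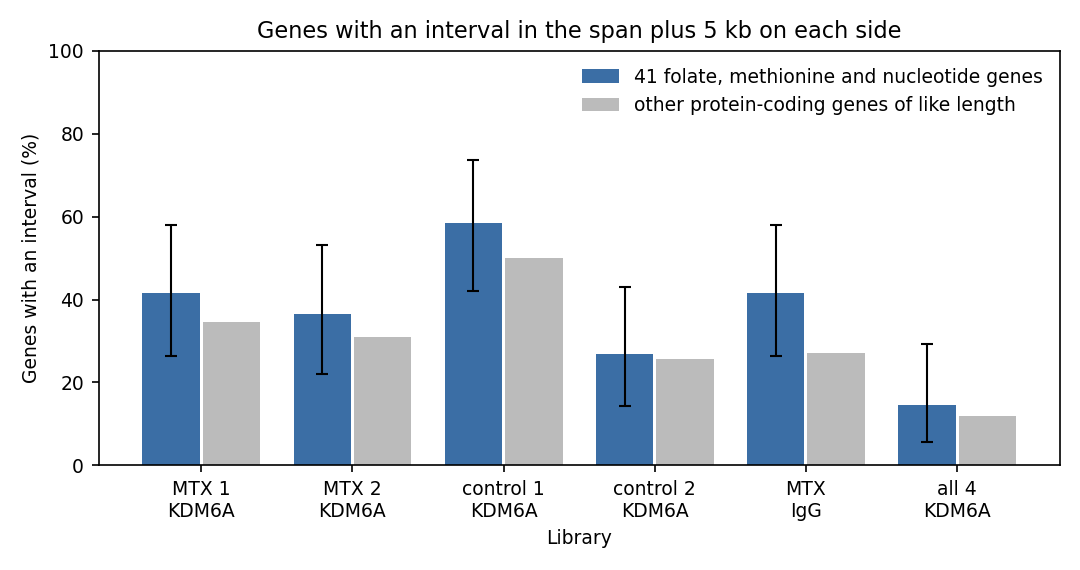
Share of genes with an interval (%, vertical axis) in each of the 5 libraries and in all 4 KDM6A libraries together; blue bars are the 41 pathway genes with exact 95% intervals for counting error, grey bars are other protein-coding genes of like length. The blue bar is the higher in each pair, the closest pair being control library 2 (26.8% and 25.7%) and the widest IgG (41.5% and 27.2%), and every error bar reaches the grey bar.

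In all 4 KDM6A libraries together, 6 genes (14.6%) had an interval, against 11.8% at like length and 13.2% of all protein-coding genes. They were Shmt1, Ahcyl1, Pemt, Pfas, Paics and Rrm1. The remaining genes had fewer libraries: 5 genes were listed in 3 KDM6A libraries, 8 in 2, 12 in 1 and 10 in none, against 10.7%, 14.8%, 22.9% and 38.4% of other genes. No pathway gene had an interval in both MTX libraries and neither control library, and none in both control and neither MTX library. Among all protein-coding genes these classes held 1.26% and 2.18%, so fewer than 1 pathway gene would be at that rate in each (0.551 and 0.962 of 41 at like length). A count of 0 of 41 has an exact upper limit of 8.60%. Without control library 2 the second class held 8 genes, all in control library 1, the longest list, and neither MTX library. The share of all genes in that class was not computed for this setting. Of the 6 genes in all 4 libraries, Pemt and Ahcyl1 had intervals of deposited adjusted p under 0.05 in each, 2 of 41 against 9.59% of all genes. Under that limit 10 and 11 pathway genes were left in the MTX libraries, 21 and 10 in the control libraries and 12 in IgG. The shares of all genes were then 27.4% and 26.7%, 41.3% and 22.3%, and 22.9%.

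Intervals at these genes had low folds. The median fold was 1.36 in MTX library 1 and 1.17 in MTX library 2, against 1.37 and 1.42 at other genes. It was 1.37 in control library 1 and 1.25 in control library 2, against 1.52 and 1.35, and it was 1.22 in IgG against 1.40. The pathway's median was the lower one in each of the 5 libraries, IgG included, a description without a test. It covers all chromosomes together, and medians without chromosome 11 were not computed. In control library 2 the pathway's intervals on chromosome 11 were at Pemt, Shmt1 and Pfas. Their pooled ratios there were 1.11, 1.06 and 1.06, so the order of the medians may differ off that chromosome. A deposited adjusted p under 0.05 was reached by 62.5% and 50% of the pathway's intervals in the MTX libraries, 65.2% and 65.0% in the control libraries and 60% in IgG, against 74.6% to 80.9% at other genes. The median interval held 82 to 138.5 immunoprecipitated reads in the KDM6A libraries and 139 in IgG.

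**Figure D2:**
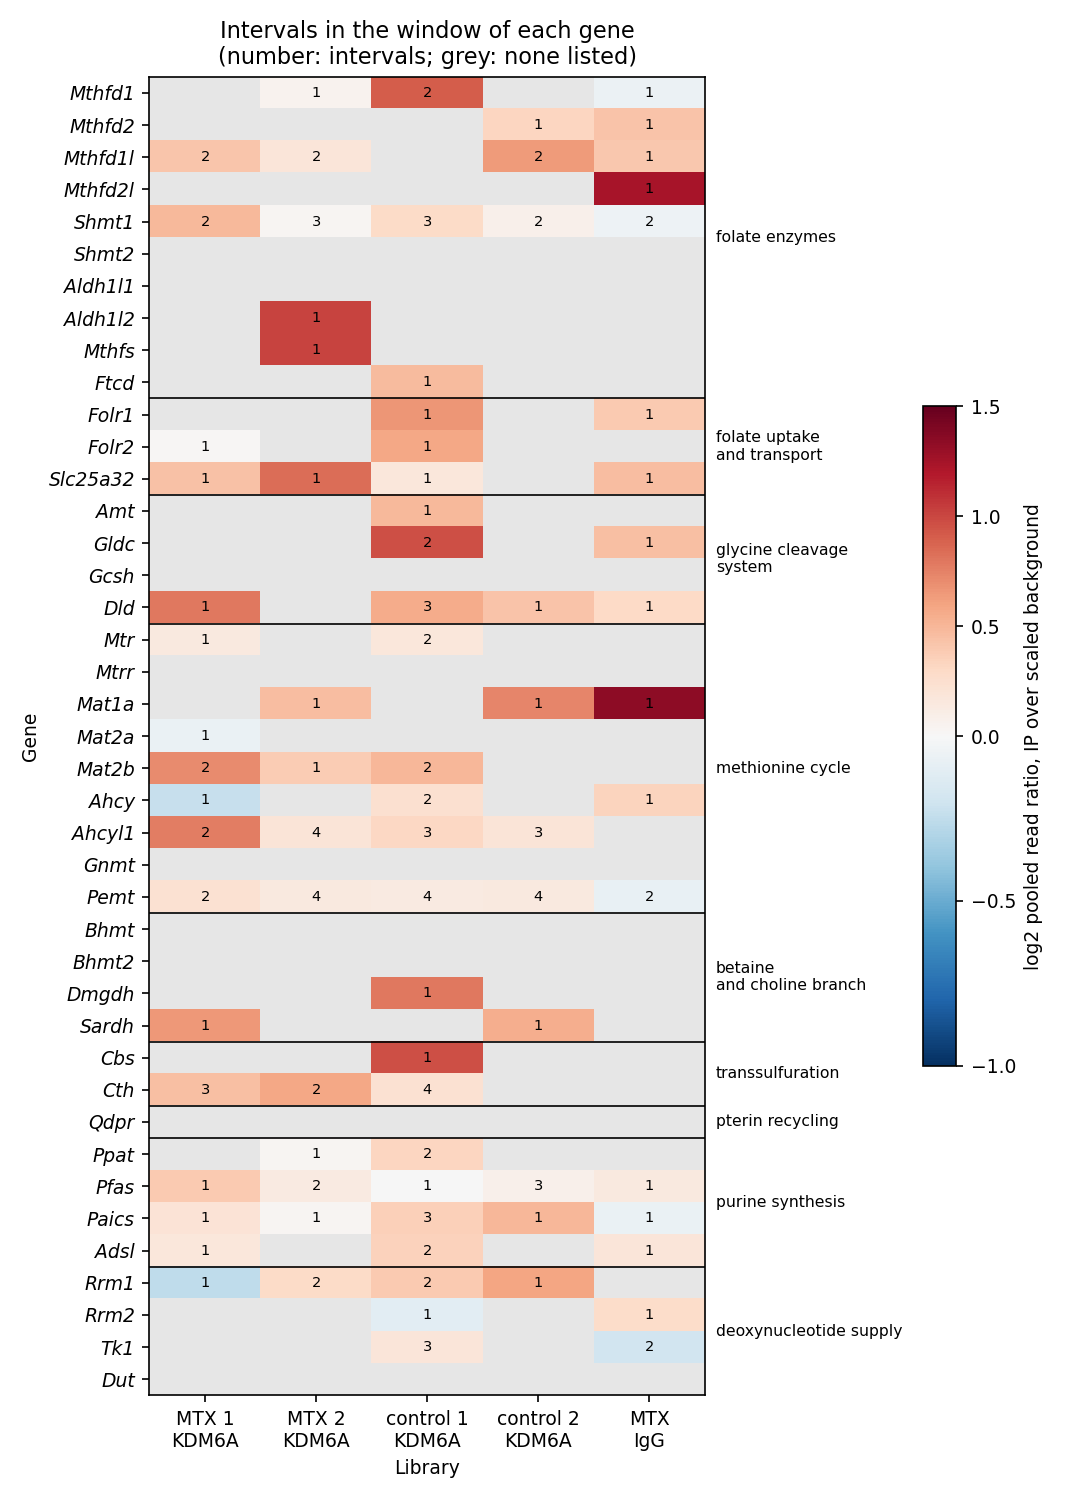
Every pathway gene (rows, grouped by role) in every library (columns); colour is the log2 of immunoprecipitated over scaled background reads, pooled over the intervals in the gene's window, the number is how many intervals were pooled, and grey means none listed. The rows filled across all 4 KDM6A columns have ratios of 0.836 to 1.71, and the darkest cells, Mat1a and Mthfd2l with pooled ratios of 2.54 and 2.35, are in the IgG column.

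Start sites of RefSeq promoter entries carried few intervals outside control library 1. RefSeq promoters were matched for 35 of the 41 genes, and the start of such an entry was not always the 5′ end of the gene span. The 5′ end of Pemt's span lay under intervals of MTX library 1 and control library 1. That of Mat2b lay under an interval of MTX library 1. These 3 intervals cover no start of an entry, so they are not in the counts of covered start sites that follow. The Mat2b interval is within 1 kb of such a start. The start site lay under an interval for 1 of 35 genes in each MTX library, against 7.42% and 2.98% of all genes with an entry. It did so for 8 of 35 in control library 1 and 0 of 35 in control library 2, against 9.85% and 2.63%, and for 4 of 35 in IgG, against 5.21%. Gene bodies, more than 1 kb from a start or an end, held 11 of the pathway's 24 intervals in MTX library 1 and 15 of 27 in MTX library 2. They held 24 of 48 in control library 1, 14 of 20 in control library 2 and 8 of 20 in IgG. An interval in the windows of 2 pathway genes is counted at each. The share of gene-body intervals at other genes was not computed, so these counts describe position only.

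The 4 genes with intervals of at least 2 libraries, IgG included, over the start site of a promoter entry are Shmt1, Mthfd1, Rrm2 and Ahcy. Their promoters are shown for that reason, and a listed interval there need not be enriched, as the folds below show. Mthfd1 and Rrm2 reach 2 libraries only with IgG. Each runs from 250 bases before to 50 bases after the RefSeq start (GRCm38.p6, the assembly of mm10), 5′ to 3′ on the gene's strand, and capitals mark CpG dinucleotides, the sites of DNA methylation. Shmt1 is at chr11:60811216-60811515 (minus strand), Mthfd1 at chr12:76254982-76255281 (plus), Rrm2 at chr12:24708004-24708303 (plus) and Ahcy at chr2:155074448-155074747 (minus).
Shmt1: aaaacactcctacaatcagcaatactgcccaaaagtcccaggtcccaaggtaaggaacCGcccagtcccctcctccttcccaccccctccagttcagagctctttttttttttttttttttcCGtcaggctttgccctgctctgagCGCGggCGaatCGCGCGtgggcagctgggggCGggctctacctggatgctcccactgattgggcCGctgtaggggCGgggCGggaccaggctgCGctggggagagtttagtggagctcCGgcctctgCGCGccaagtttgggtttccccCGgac
Mthfd1: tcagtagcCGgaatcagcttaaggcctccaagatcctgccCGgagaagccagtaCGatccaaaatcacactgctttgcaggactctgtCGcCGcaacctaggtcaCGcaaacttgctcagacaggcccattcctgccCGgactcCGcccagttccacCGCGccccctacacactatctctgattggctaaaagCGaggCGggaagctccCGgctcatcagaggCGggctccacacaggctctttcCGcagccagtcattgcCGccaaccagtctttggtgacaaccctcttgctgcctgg
Rrm2: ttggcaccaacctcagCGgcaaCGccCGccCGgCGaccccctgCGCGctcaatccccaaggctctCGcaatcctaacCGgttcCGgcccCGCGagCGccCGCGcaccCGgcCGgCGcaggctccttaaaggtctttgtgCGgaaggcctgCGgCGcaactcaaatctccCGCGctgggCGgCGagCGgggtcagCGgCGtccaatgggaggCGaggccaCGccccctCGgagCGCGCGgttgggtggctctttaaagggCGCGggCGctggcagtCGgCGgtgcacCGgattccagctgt
Ahcy: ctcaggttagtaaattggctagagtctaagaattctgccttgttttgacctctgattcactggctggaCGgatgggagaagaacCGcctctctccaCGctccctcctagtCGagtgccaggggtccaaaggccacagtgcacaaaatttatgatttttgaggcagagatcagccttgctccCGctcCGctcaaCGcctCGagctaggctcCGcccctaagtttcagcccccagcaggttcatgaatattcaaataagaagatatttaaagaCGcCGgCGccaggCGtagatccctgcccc
These 4 promoters hold 17, 16, 40 and 13 CpG dinucleotides, against a median of 7 over the 32851 promoters of the table and of 18 over the 41 promoter entries of the pathway genes. Rrm2 is the most CpG-rich of the 4, with more than 96.1% of all promoters. The letters CACGTG (the E-box bound by MYC and USF factors), TGATGNAA (the amino acid response element bound by CHOP and ATF4) and the palindromic NRF1 motif, searched on both strands, are in none of the 4. Among the 41 pathway promoters CACGTG is in 2, of Cbs and Paics, against 7.15% of all promoters. TGATGNAA is in 0, against 3.97%, and the NRF1 motif is in 1, of Shmt2, against 0.971%.

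At 3 of these start sites no KDM6A fold was above 1.01. At Shmt1 the fold was 0.965 in MTX library 2 and 0.821 in control library 1, against 0.759 in IgG, so reads did not exceed the background in any of these libraries. At Ahcy it was 0.852 in MTX library 1 and 1.01 in control library 1, with no IgG interval over it. At Rrm2 it was 0.931 in control library 1, against 1.21 in IgG. Mthfd1 had the highest, with 1.75 (exact interval 1.31 to 2.35, 114 against 86 reads) in control library 1, but no other KDM6A library listed its start. IgG, made from MTX cells, had 0.959 in a wider interval that includes these bases. A different start, that of Mat2b, was within 1 kb of intervals in MTX library 1 (1.73) and control library 1 (1.21), and IgG had none in the window.

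Of the 10 folate enzymes, which interconvert and use the folate carriers of carbon units, 2 and 5 had an interval in the MTX libraries, 3 and 3 in the control libraries and 5 in IgG. Over all protein-coding genes the shares were 33.5% and 30.8%, 47.1% and 26.1%, and 27.5%. The counts by role, here and below, are of few genes each and were not tested. Shmt1, the cytosolic serine hydroxymethyltransferase that passes a carbon from serine to folate, was the only one in all 4 KDM6A libraries. Its pooled ratios were 1.41 and 1.02 in MTX libraries 1 and 2 and 1.22 and 1.06 in control libraries 1 and 2, against 0.967 in IgG. The groups overlap. Inside the gene, chr11:60807401-60808400 lay within an interval of all 5 libraries, IgG included. The intervals that covered it had folds of 1.37 and 0.965 in the MTX libraries and 1.96 and 1.05 in the control libraries, against 0.759 in IgG.

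Mthfd1l, the mitochondrial enzyme that releases formate, is the longest gene of the pathway, with a span of 194190 bp on chromosome 10. It had the pathway's highest fold of control library 2, 1.83 (1.43 to 2.36, 179 against 102 reads) at chr10:4004001-4009600. Its other intervals had folds of 1.72 and 1.11 in MTX library 1, 1.09 and 1.18 in MTX library 2 and 1.30 in control library 2, against 1.32 in IgG, and none of the gene's intervals overlapped another. Aldh1l2 and Mthfs each had 1 interval, in MTX library 2 alone, both with a fold of 2.02, the highest of the pathway in that library. The reads were 108 against 60 at Aldh1l2, the mitochondrial 10-formyltetrahydrofolate dehydrogenase, at chr10:83487801-83491200. They were 90 against 50 at Mthfs, which returns 5-formyltetrahydrofolate to the folate pool, at chr9:89214001-89216600. MTX library 1 listed neither gene. Mthfd2, the mitochondrial dehydrogenase and cyclohydrolase, had 1.25 in control library 2 just before its 5′ end, against 1.34 in IgG past the 3′ side. Its homolog Mthfd2l had an interval in IgG alone, with a fold of 2.35 (1.69 to 3.33). Mthfd1, the cytosolic trifunctional enzyme, had a second interval of 2.14 in its body in control library 1 and one of 1.04 in MTX library 2. Ftcd, which passes the formimino group of histidine to folate, was in control library 1 alone with 1.38, and Shmt2 and Aldh1l1 had no interval in any library.

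All 3 genes of folate uptake and transport were in control library 1, the longest list, which had an interval at 47.1% of all protein-coding genes. None was in control library 2, which had one at 26.1%. Slc25a32, the mitochondrial folate carrier, had folds of 1.35 in MTX library 1 and 1.78 (1.40 to 2.27, 183 against 115 reads) in MTX library 2, and 1.13 in control library 1, against 1.38 in IgG. The MTX 1 and control 1 intervals overlapped inside the gene, whereas those of MTX 2 and IgG overlapped each other at its low end, chr15:39086201-39092600 in MTX 2. Folr1 and Folr2, folate receptors that are neighbours on chromosome 7, had 1.58 and 1.50 in control library 1, and Folr2 had 1.01 in MTX library 1, against 1.32 for Folr1 in IgG. The other KDM6A libraries had none there.

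The glycine cleavage system, which splits glycine in mitochondria and hands a carbon to folate, has 4 parts here. MTX libraries 1 and 2 listed 1 and 0 of them, control libraries 1 and 2 listed 3 and 1, and IgG listed 2. Over all protein-coding genes the shares were 33.5% and 30.8% in MTX, 47.1% and 26.1% in control libraries and 27.5% in IgG. Control library 1, the longest list, had Amt (1.40, over the start), Gldc (1.89 and 2.05, against 1.37 in IgG at a different place) and Dld. Dld, the dihydrolipoamide dehydrogenase shared with other mitochondrial complexes, had 1.74 in MTX library 1. It had 2.72, 1.18 and 1.34 in control library 1 and 1.34 in control library 2, against 1.23 in IgG. The value of 2.72 (1.80 to 4.17, 74 against 36 reads), at chr12:31330401-31333400 by the 3′ end, overlapped the MTX 1 interval and no IgG interval. The intervals of both control libraries and IgG overlapped over 1200 bp at chr12:31345001-31346200. Gcsh had no interval in any library.

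The methionine cycle held 9 genes, of which 6 and 4 were listed in the MTX libraries, 5 and 3 in the control libraries and 3 in IgG. Ahcyl1, a homolog of S-adenosylhomocysteine hydrolase, is on chromosome 3 and had no IgG interval in its window. Its pooled ratios were 1.71 and 1.14 in MTX libraries 1 and 2 and 1.24 and 1.14 in control libraries 1 and 2. MTX library 1 is high and the other 3 lie close together. A stretch of 2200 bp in the gene body, chr3:107671601-107673800, was covered by intervals of all 4 KDM6A libraries. Their folds were 1.80 (1.31 to 2.49, 109 against 65 reads) in MTX library 1, the highest of the pathway in that library, and 1.09 in MTX library 2, against 1.04 and 1.01 in control libraries 1 and 2. Deposited adjusted p-values there were 3.33e-08 in MTX library 1, 0.195 in MTX library 2, 0.346 in control library 1 and 0.452 in control library 2. Of the 6 genes in all 4 libraries, Shmt1 and Ahcyl1 had bases common to all 4, against 19.1% of the 2887 such genes overall.

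Pemt, which makes phosphatidylcholine with methyl groups from S-adenosylmethionine, held 14 KDM6A intervals over its 75948 bp on chromosome 11. Its pooled ratios were 1.17 and 1.11 in MTX and 1.10 and 1.11 in control libraries, against 0.949 in IgG. The narrowest interval of the pathway was there, at chr11:59997401-59997800 in control library 1, with 33 against 12 reads and a fold of 3.64 (1.83 to 7.74), the highest of all. An interval of control library 2 covered the same bases with a fold of 1.14, and neither MTX library listed them. MTX library 1 and both control libraries lined up at 2 other places in Pemt, and MTX library 2 at neither. At chr11:60004601-60006000 the folds were 1.36 in MTX library 1 and 0.964 and 0.857 in control libraries 1 and 2, against 0.865 in IgG. At chr11:60045401-60046200, by the 5′ end, they were 1.06 in MTX library 1 and 0.874 and 1.25 in the control libraries, with no IgG interval.

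Mat2b, a regulatory subunit of the methionine adenosyltransferase of dividing cells, was in both MTX libraries and control library 1, with pooled ratios of 1.64, 1.30 and 1.41, and had no IgG interval. Upstream of it, MTX 1 (1.59) and MTX 2 (1.30) intervals overlapped, and the MTX 1 interval also reached one of control library 1 (1.78). Mat2a, which encodes the catalytic subunit, had 1 interval, of fold 0.957, in MTX library 1. Mat1a, the liver form, had 1.38 in MTX library 2 and 1.66 in control library 2, against 2.54 (1.70 to 3.85, 88 against 36 reads) in IgG, the highest fold of the pathway in that library. Ahcy, the hydrolase that removes the methylation inhibitor S-adenosylhomocysteine, had a further interval of 1.65 in control library 1 and one of 1.26 in IgG, both upstream of its start. Mtr, methionine synthase, which uses methylfolate, had 1.11 in MTX library 1 and 1.24 and 1.01 in control library 1. Its reactivating enzyme Mtrr, and the glycine methyltransferase Gnmt, had no interval in any library.

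In the betaine and choline branch, the betaine methyltransferases Bhmt and Bhmt2 had no interval in any library. Dmgdh, the next enzyme of that branch, had 1.73 in control library 1 alone, and Sardh, sarcosine dehydrogenase, had 1.57 in MTX library 1 and 1.45 in control library 2 at separate places in its body. Of the transsulfuration enzymes, which turn homocysteine into cysteine, Cbs had 1.96 in control library 1 alone. Cth was in both MTX libraries and control library 1, and had no IgG interval. Its folds were 1.70, 1.37 and 1.19 in MTX library 1 and 1.41 and 1.66 in MTX library 2, against 1.28, 1.58, 0.913 and 1.23 in control library 1. These 3 libraries had 2400 bp in common at chr3:157919001-157921400, with folds of 1.19 and 1.66 in MTX libraries 1 and 2 and 0.913 in control library 1. Qdpr, which recycles tetrahydrobiopterin, had no interval in any library.

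All 4 genes of purine synthesis were in control library 1, and 3 in each MTX library, 2 in control library 2 and 3 in IgG. The shares over all protein-coding genes were 47.1% in control library 1, 33.5% and 30.8% in MTX libraries 1 and 2, 26.1% in control library 2 and 27.5% in IgG. Pfas, the formylglycinamidine ribonucleotide synthase, had pooled ratios of 1.32 and 1.10 in MTX libraries 1 and 2 and 0.995 and 1.06 in control libraries 1 and 2, against 1.10 in IgG. At 1 end of the gene the intervals of MTX 2, control 1 and IgG shared chr11:69009001-69010000, with folds of 1.23 and 0.995 against 1.10. Paics, a bifunctional enzyme of the middle of the pathway, had pooled ratios of 1.15 and 1.02 in MTX and 1.28 and 1.42 in control libraries, against 0.953 in IgG. Both MTX values lie below both control values, but the reads come mostly from different places, and only the MTX 1 and control 2 intervals overlapped among the KDM6A libraries, with IgG, at chr5:76966801-76968200. Ppat, the amidophosphoribosyltransferase that opens the pathway, starts head to head with Paics, so its 3 KDM6A intervals, 1 in MTX library 2 and 2 in control library 1, are the same as intervals of Paics. Adsl, adenylosuccinate lyase, had 1.12 in MTX library 1 and 1.48, at its start, and 1.15 in control library 1, against 1.13 in IgG.

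Among the suppliers of deoxynucleotides, Rrm1, the large subunit of ribonucleotide reductase, was in all 4 KDM6A libraries and had no IgG interval in its window. It had 92 against 118 reads, a ratio of 0.836, in MTX library 1 and 1.22 in MTX library 2, against 1.31 and 1.50 in control libraries 1 and 2. Both MTX values are the lower ones, but no bases were common to the 4 libraries. Rrm2, the small subunit, had only the interval over its start in control library 1 among the KDM6A libraries. Tk1, thymidine kinase, had 1.38, 1.07 and 1.09 in control library 1 and no other KDM6A interval, against 0.886 and 0.870 in IgG. Dut, which destroys dUTP, had no interval in any library.

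**Figure D3:**
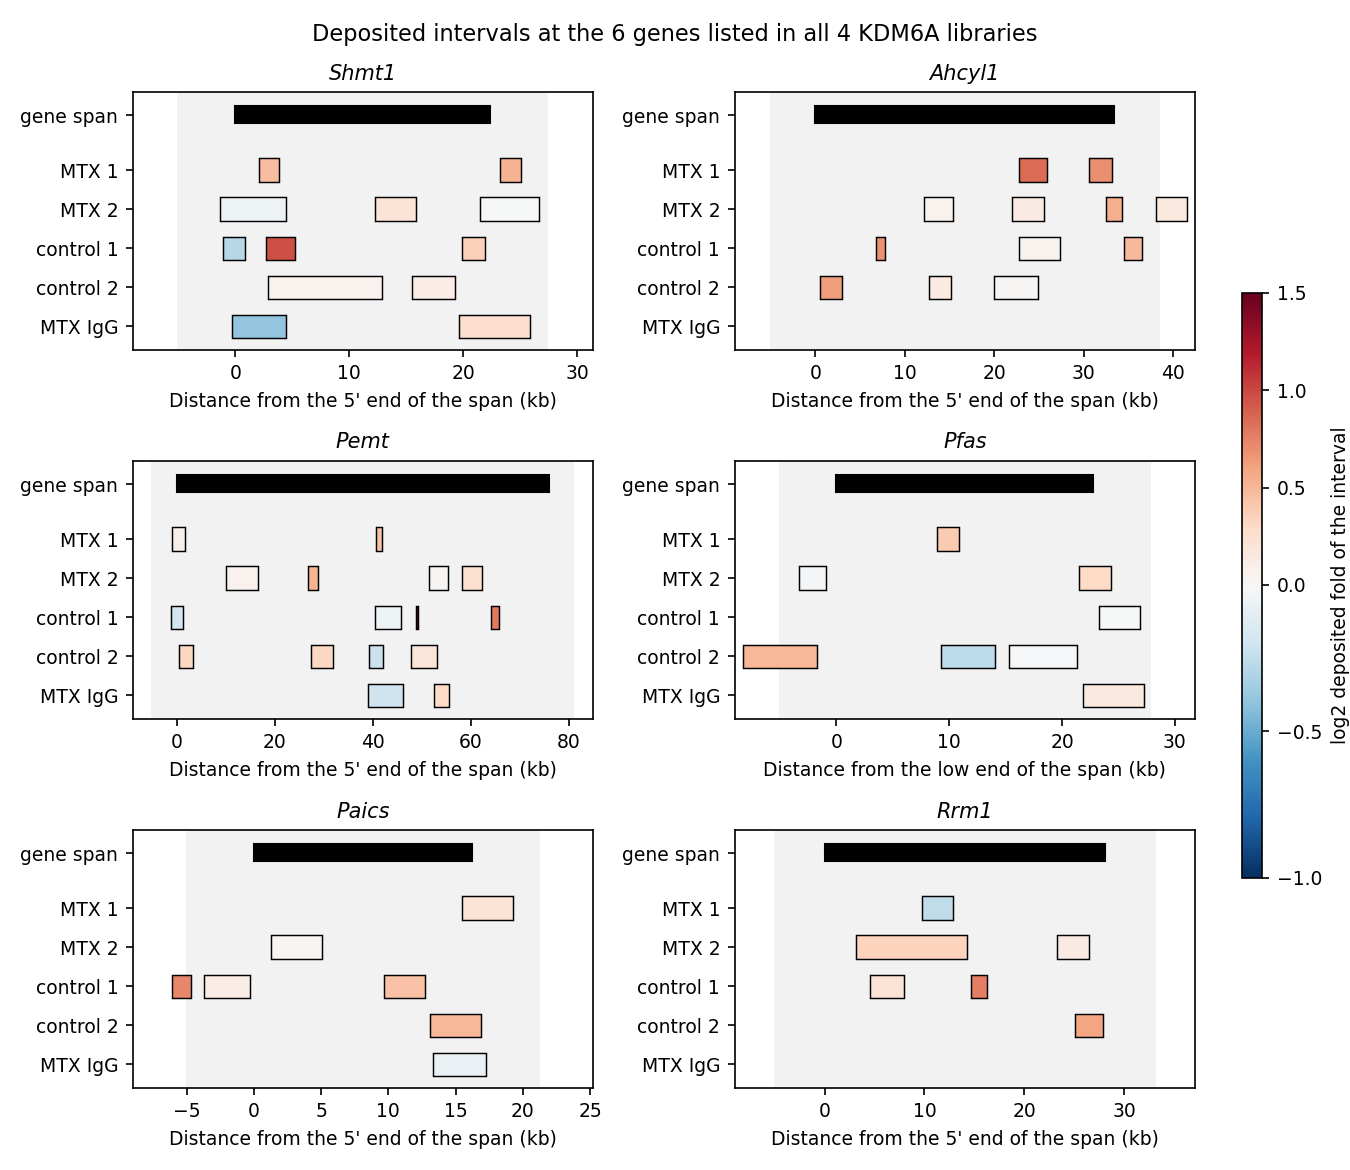
Intervals at the 6 genes listed in all 4 KDM6A libraries, by distance from the gene's 5′ end in kb (from the low end for Pfas, whose strand was not used here); rows are libraries, the black bar is the gene, the grey area is the window, and colour is the log2 of the deposited fold. Intervals of all 4 KDM6A rows line up at 1 place in Ahcyl1 and in Shmt1, where IgG has an interval only at Shmt1, and no place is shared by all 4 in the other 4 genes, although 3 KDM6A rows line up at 2 places in Pemt.

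For these 6 genes, MTX was tested against control with edgeR's quasi-likelihood test on the reads pooled per gene, with scaled background reads as the offset. The fit covered the 2887 protein-coding genes listed in all 4 KDM6A libraries. No gene passed in either direction at a Benjamini-Hochberg adjusted p under 0.05 (0% called), and 4.02% had an unadjusted p under 0.05. DESeq2 and limma (pseudocount 1) also called 0, with 60 and 125 genes under the unadjusted threshold, where edgeR had 116. None of the 6 genes was among edgeR's. The log2 fold of MTX over control was -0.43 (SE 0.28) at Rrm1, -0.31 (SE 0.31) at Paics, 0.24 (SE 0.23) at Ahcyl1 and 0.21 (SE 0.25) at Pfas. It was 0.07 (SE 0.21) at Shmt1 and 0.04 (SE 0.18) at Pemt, and the adjusted p was 0.992 for each of the 6 in edgeR's test. With TMM scaling and no background offset the sign turned at Rrm1, Pfas, Shmt1 and Pemt. The median of the 6 was 0.06, beside -0.03 over all genes tested. The pooled reads of 2 libraries at a gene need not come from the same bases, so a difference can be one of place or of level. At Rrm1 the log2 ratios were -0.26 and 0.29 in MTX and 0.39 and 0.59 in control libraries, a mean of 0.02 ± 0.39 against 0.49 ± 0.14 (SD, n = 2). An exact permutation test of 2 libraries against 2 cannot give a p under 0.33.

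**Figure D4:**
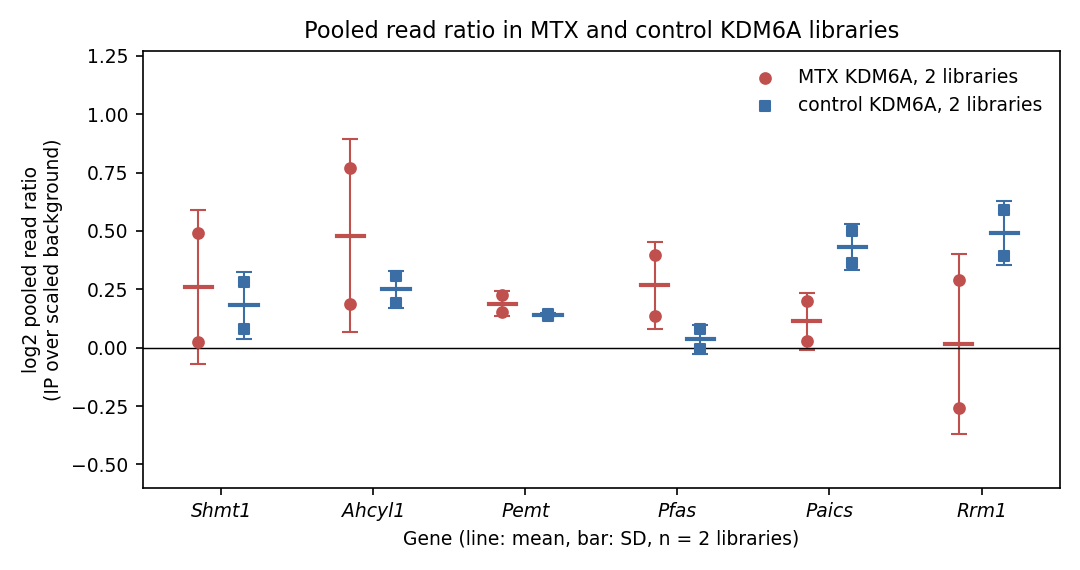
Log2 of pooled immunoprecipitated over scaled background reads (vertical axis) at the 6 genes listed in all 4 KDM6A libraries; red circles are MTX, blue squares control libraries, lines are means and bars the SD (n = 2). Both MTX points lie below both control points at Paics and Rrm1 and above them at Pemt and Pfas. At Pemt the nearest points are 0.152 in MTX and 0.146 in control libraries. The sign turned with TMM scaling at Rrm1, Pemt and Pfas. The share of the 2887 tested genes with such a separation was not computed, so these genes cannot be set against it. The widest gap between replicates is that of the MTX libraries at Ahcyl1 and Rrm1.

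Chromosome 11, where intervals were dense in all 5 libraries, carried 5 of the 41 genes and 3 of the 6 in all 4 KDM6A libraries. These 3 are Shmt1, Pemt and Pfas, out of Shmt1, Mat2b, Pemt, Pfas and Tk1 on that chromosome. Among other protein-coding genes 36.2% of those on chromosome 11 and 11.4% of those elsewhere were in all 4 libraries, against 3 of 5 and 3 of 36 in the pathway. Off chromosome 11 the pathway genes with an interval numbered 13 and 11 in the MTX libraries, 19 and 8 in the control libraries and 13 in IgG, of 36. The shares of other genes off chromosome 11 were 31.1% and 28.7% in the MTX libraries, 45.2% and 23.5% in the control libraries and 25.5% in IgG.

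IgG intervals overlapped 20.8% and 23.1% of the pathway's intervals in MTX libraries 1 and 2 and 23.9% and 25% in control libraries 1 and 2. At other genes the shares were 26.4% and 25.4% in the MTX and 20.1% and 27.2% in the control libraries. Of the genes with intervals of both libraries of a pair, the 2 sets overlapped at 5 of 10 genes for the MTX libraries and 4 of 7 for the control libraries, where the shares over all genes were 49.9% and 52.4%. With IgG they overlapped at 3 of 9 genes for MTX library 1 and 5 of 8 for MTX library 2, against 53.7% and 54.7% over all genes. They overlapped with IgG at 8 of 13 for control library 1 and 4 of 8 for control library 2, against 56.0% and 51.4%. Whether the antibody, the background or the position along the chromosome accounts for the pathway's intervals was not tested.

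Another 61 genes of folate uptake, serine, polyamine, cobalamin, pterin, purine and pyrimidine metabolism, none among the 41, were also counted, and their shares lay on both sides of those at like length. In the MTX libraries 15 and 18 had an interval, in the control libraries 37 and 7 and in IgG 13. The shares were 24.6% and 29.5% in MTX, against 31.8% and 28.2% at like length. They were 60.7% and 11.5% in control, against 46.9% and 23.4%, and 21.3% in IgG, against 24.7%. Amd1 (S-adenosylmethionine decarboxylase), Tcn2 (a cobalamin carrier), Adk (adenosine kinase) and Rrm2b (a subunit of ribonucleotide reductase) were in all 4 KDM6A libraries, 6.56% of the 61 against 9.65% at like length. Apip, of methionine salvage, was in both MTX libraries alone and Slc46a1, a folate transporter, in both control libraries alone, 1.64% each against 1.32% and 2.40% at like length. None of the 4 tested genes passed edgeR's test (adjusted p of at least 0.992).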

How the data were processed

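Chromatin immunoprecipitation libraries of Sv129 mouse embryonic stem cells were deposited as lists of enriched intervals, 1 per library. The submitters' processing notes name Bowtie2 and the mm10 build. No source used here gives the interval caller. The lists have no header, so the meaning of each column was read from its values. The deposited lists hold, per interval, a count of immunoprecipitated reads and a count of background reads, both raw. They also hold a p-value and an adjusted p-value deposited by the authors, and the authors' fold, which equals the ratio of the counts times 1 constant per list. No replicates were pooled in these lists. The 4 inputs have no list of their own here.

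Genes were the 21883 protein-coding genes of RefSeq (GRCm38.p6) on the main chromosomes, and an interval was assigned to a gene when at least 1 bp lay in the span plus 5 kb on each side. Many windows of pathway genes overlap other protein-coding genes, such as Smcr8 at Shmt1, Stim1 at Rrm1 and Rhoa at Amt. An interval in a window is therefore not particular to the named gene. Shares of other genes were weighted to the pathway's lengths in 10 bins. Named genes were those in all 4 KDM6A libraries, those in both libraries of 1 group alone, the highest fold per library and those with intervals within 1 kb of a start in 2 KDM6A libraries; the others are given by role and were named after their values were seen. Promoters are printed, by a separate rule, for genes with the start under intervals of the most libraries, IgG included. The members and gene lists were chosen with earlier results of these data known. MTX and control libraries were compared with edgeR's quasi-likelihood test, with background divided by the list's constant as offset and Benjamini-Hochberg adjustment; the script was tested on simulated data. DESeq2 and limma were alternatives, with other intervals, windows and left-out libraries. Lists were read with pandas 2.3.3 and intervals computed with scipy 1.17.1.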

Additional observations from a re-analysis of the deposited data

How the results depend on the processing

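Of the recomputed counts of pathway genes, over all results and settings, 36 stayed within 1.5 times the reported count and 23 did not. With intervals of deposited adjusted p under 0.05, MTX library 1 had 10 genes and 2 were in all 4 KDM6A libraries (Pemt, Ahcyl1), 1 in both MTX libraries alone (Slc25a32) and 1 in both control libraries alone (Paics). In the better 50% of each list there were 6 and 4 in the MTX libraries, 8 and 5 in the control libraries, 2 in IgG, 0 in all 4 and 1 in MTX alone (Cth). In lists of equal length MTX library 2 had 9 and control library 1 had 8, with 1 in all 4 (Pemt) and 2 in MTX alone (Slc25a32, Cth). Without intervals that overlap IgG, 3 were in all 4 (Pemt, Ahcyl1, Rrm1). Leaving out 1 library at a time gave 1 to 3 genes in MTX alone and 0 to 8 in control alone, the 8 without control library 2, and 6 to 9 in all the KDM6A libraries kept. Shares over other genes were not computed for the halved, equal-length, IgG-free and left-out lists. Nor were they for the classes of 1 group alone at adjusted p under 0.05. These counts show how far the rule moves them and cannot be set against the rate of other genes. The cause was not tested.

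In edgeR's test, leaving out 1 library gave 1 to 11 called genes of 2887: 1 without MTX library 1, 5 without MTX library 2, 1 without control library 1 and 11 without control library 2, a fit in which the lone library is assumed to vary like the other group. With the replicate number as a block 3 genes were called, none of them in the pathway; the numbers are only shared, and same-numbered deviations had a Pearson r of 0.03 across genes, which are not independent. The sign of the log2 fold turned with TMM factors and no background offset at Pemt (-0.36), Pfas (-1.35), Rrm1 (1.11) and Shmt1 (-0.23). It also turned with intervals of adjusted p under 0.05 at Pemt (-0.26), and with 1 library left out at Ahcyl1, which ranged between -0.060 without MTX library 1 and 0.52 without MTX library 2. Shmt1 ranged between -0.15 without MTX library 1 and 0.31 without MTX library 2, and was -0.028 without control library 2. In none of these did a pathway gene pass the test. Under adjusted p under 0.05, Shmt1, Pfas, Paics and Rrm1 gave no value, and neither did Pfas with the gene span alone. The precision at this depth is that of a median of 82 to 138.5 reads an interval in the KDM6A libraries. The smallest difference that 2 libraries a group could detect was not measured.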
